A study of Arabidopsis thaliana with 6 samples.

Results

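The genes described here encode the serine/arginine-rich (SR) proteins of *Arabidopsis thaliana* and a group of RNA-binding proteins related to the heterogeneous nuclear ribonucleoproteins (hnRNPs). They were taken by gene identifier and not by any measured value. The set holds 33 of the 28775 genes in the gene table, with 18 genes of the 6 SR protein subfamilies, the atypical SR proteins SR45 and SR45a, and 13 hnRNP-like genes of the PTB, RBP45/RBP47 and UBP1 families. Transcripts were counted in 6 libraries of the Columbia (Col) accession, 3 from the wild type and 3 from the *cao* mutant. The mutant is named *brr2a*-2 here after its recessive missense allele of *BRR2a*, the gene of a spliceosomal RNA helicase, so the transcript level of *BRR2a* cannot check the labels. Both genotypes were grown in parallel in short days for 15 days without treatment and harvested 1 h before dark. The labels name rosette leaves and the methods of the study name seedlings. The 3 libraries of a genotype are labelled as biological replicates.

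SR proteins bind exonic sequences through an RNA recognition motif and recruit the splicing machinery through a domain rich in arginine and serine. They bring U1 snRNP to the 5′ splice site and U2AF to the 3′ splice site, and in plants they are encoded by an enlarged gene family with several plant-specific branches. hnRNP-like proteins of the PTB, RBP45/RBP47 and UBP1 families bind pyrimidine-rich or uridine-rich RNA, and many of them bind within introns. Many genes of both classes carry a long intron that is itself alternatively spliced. The isoforms that include part of this intron often hold a premature stop codon and are targets of nonsense-mediated decay, which links the amount of protein to the splicing of its own transcript.

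The alternative exons inside such introns are shown first, since reads that fall in them could be counted as intron reads in these data. Introns were counted for the first isoform of each gene only, and the exons below belong to other annotated isoforms. They were read from the TAIR10.1 genome and its RefSeq annotation, from 5′ to 3′ on the strand of the gene, and all positions given here are on TAIR10.1. Capitals mark the first in-frame stop codon of the exon. In *SCL33* the exon holds no in-frame stop codon and is in lower case throughout.
*RS41* intron 2, chr5:21131562-21131815, plus strand: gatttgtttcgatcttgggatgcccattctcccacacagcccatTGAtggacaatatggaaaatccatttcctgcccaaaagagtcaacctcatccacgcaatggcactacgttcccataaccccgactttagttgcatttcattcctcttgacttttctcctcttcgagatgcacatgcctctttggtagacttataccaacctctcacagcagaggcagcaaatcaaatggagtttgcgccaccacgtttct
*SR34* intron 10, chr1:628777-628856, plus strand: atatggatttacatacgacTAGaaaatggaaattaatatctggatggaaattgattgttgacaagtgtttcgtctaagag
*SR45a* intron 4, chr1:2258750-2258845, minus strand: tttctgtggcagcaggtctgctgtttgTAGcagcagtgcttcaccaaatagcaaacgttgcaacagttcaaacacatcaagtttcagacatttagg
*PTB2* intron 3, chr5:21570834-21570891, minus strand: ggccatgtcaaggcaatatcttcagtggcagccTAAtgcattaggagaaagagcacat
*SCL33* intron 3, chr1:20631687-20631722, plus strand: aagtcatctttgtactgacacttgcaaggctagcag

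The exon of *RS41* was 254 bases long with its stop codon at base 45. The coding sequences of the first isoforms of *RS41* and its paralog *RS40* were 75.9% identical. The stop codon stood at base 20 of 80 in *SR34*, at base 28 of 96 in *SR45a* and at base 34 of 58 in *PTB2*. The exons of *RS41*, *SR34*, *PTB2* and *SCL33* lie in the longest intron of their gene. The exon of *SR45a* does not.

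The libraries held between 18692830 and 29830638 gene counts, of which the 33 genes took between 0.117% and 0.151%. Plastid genes took 40.1% to 46.4%. Intron counts summed to between 561146 and 1065088 per library. Leaf markers were abundant, with summed levels of 6870 to 18200 CPM over 5 genes, where CPM are counts scaled to a common library size. Of 6 shoot meristem and flower markers, 4 had at most 3 counts in every library, and *AP3* was at 0 in all. Root markers were present, with summed levels over 7 genes of 10.2 to 12.1 CPM in Col and 15.2 to 16.7 CPM in *brr2a*-2, and 0 of the 7 genes were at 0 in every library. The sum was higher in all *brr2a*-2 libraries, but its genes did not move together. *CASP1* was at 3.68 to 7.17 CPM in Col and 7.43 to 10.7 CPM in *brr2a*-2, and *IRT1* and *MYB36* had higher means with overlap. The other 4 genes had lower means in *brr2a*-2, among them *NRT2.1*, which was at 0 in all *brr2a*-2 libraries. The part of root RNA in the results below was not tested. In such bulk samples fewer cells of a type and less RNA per cell cannot be told apart.

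Levels are given as CPM scaled with TMM, and levels of different genes are compared as CPM per kb of annotated exon. In Col the highest level per kb was that of *RBP45B*, at 86.8 ± 7.87 (SD, n = 3), followed by *UBP1C* at 82.4 ± 34.4 and *UBP1A* at 42.5 ± 3.77 (SD, n = 3 each). The levels of *RBP45B* and *UBP1C* did not differ beyond their spread. *RS40*, *SCL30*, *RBP45C* and *RS41* came next, at 31.9, 31.5, 30.4 and 28.2 CPM per kb, with SDs between 2.47 and 4.13 that span the gaps between neighbours. Among the SR genes the lowest levels per kb were those of *SR34b* at 4.06 ± 1.00, *RS31a* at 2.89 ± 1.48 and *SCL28* at 0.817 ± 0.0916 (SD, n = 3 each). *SCL28* thus stood apart at the lower end of the order, below *RS31a* by more than its spread. In *brr2a*-2, *RBP45B* at 101 ± 18.5 and *SCL28* at 0.789 ± 0.218 CPM per kb (SD, n = 3 each) again were the ends of the order.

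The comparison of the genotypes asked whether transcripts of splicing regulators differ when a core spliceosomal helicase is impaired. No gene of the set passed the test, and differences were small. The log2 fold changes of *brr2a*-2 against Col ran from -0.47 in *RBP47B* to 0.67 in *SR30*, with 27 genes above 0, 6 below 0 and a median of 0.18. Over all 19121 genes tested the median was -0.04, with 8808 genes above 0. All 33 genes passed the filter on low counts and were tested. The threshold for a call was 0.05 for the adjusted p of edgeR's quasi-likelihood test, together with a 2-fold difference in either direction. It was met by 0 of the 33 genes and by 0 of all genes (0%), with a smallest adjusted p of 0.092 over all genes.

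At an unadjusted p under 0.05, 5 of the 33 genes were higher in *brr2a*-2, where 6.93% of all genes tested were, and 1 was lower, where 7.47% of all genes were. The count of 5 depended on single libraries. It was 8 without Col replicate 1, 3 without Col replicate 2, 3 without *brr2a*-2 replicate 1 and 2 without *brr2a*-2 replicate 2, and it was 3 without TMM scaling. The 1 lower gene was lost without Col replicate 1 or 3 and without any of the 3 *brr2a*-2 replicates. With DESeq2, 1 of the 33 genes, *RS2Z32*, had an adjusted p under 0.05, where 3.39% of all genes with an adjusted p had, and 0 of the 33 were also past 2-fold. Every *brr2a*-2 library was higher than every Col library for 9 genes and lower for 1, against 10.8% and 10.2% of all genes tested. The 9 genes were *SR34*, *SR30*, *RS31*, *RS2Z32*, *SCL33*, *SC35*, *PTB2*, *RBP45A* and *RBP45C*, and the 1 lower gene was *UBP1A*.

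**Figure D1:**
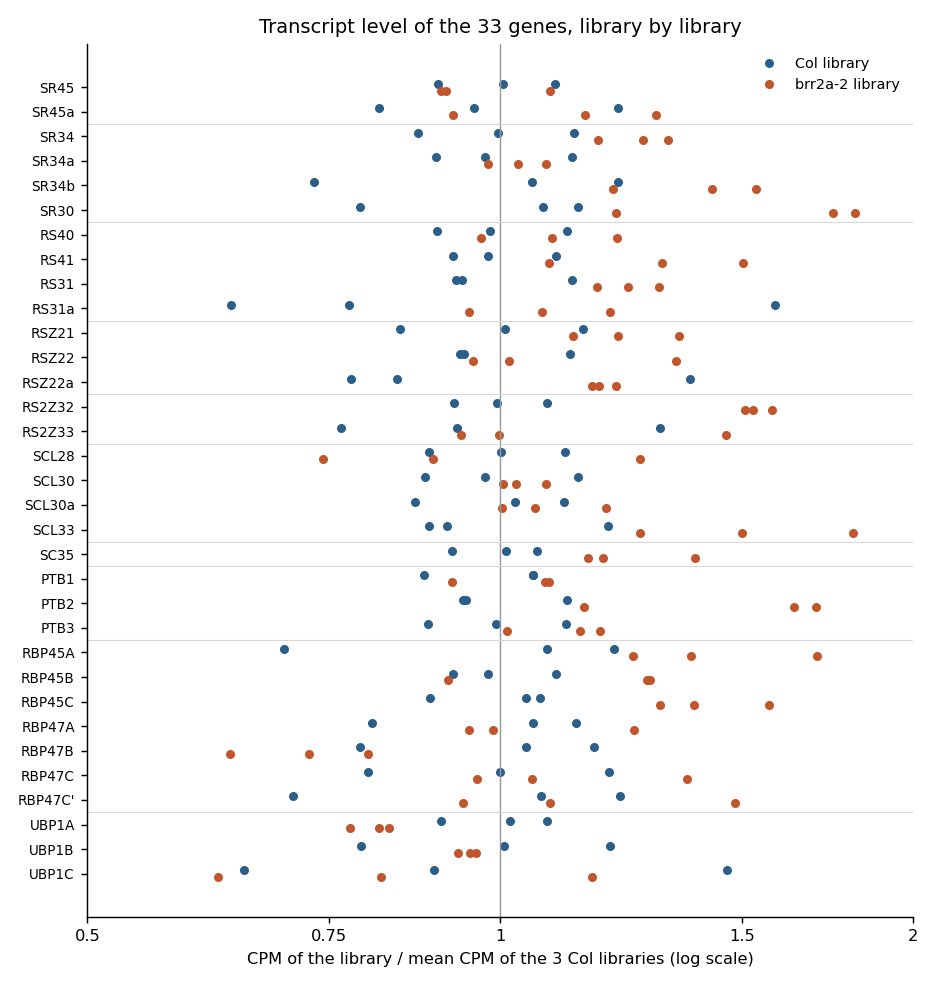
Level of the 33 genes in every library, as CPM divided by the mean CPM of the 3 Col libraries, on a log scale. Blue points are Col libraries, orange points *brr2a*-2 libraries, and grey lines separate the families. The *brr2a*-2 points of *RS2Z32* lie together at 62.4 to 65.3 CPM, to the right of all Col points at 38.3 to 44.8 CPM, while the points of *UBP1C* and *RS31a* are spread widely within Col.

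Of the 18 genes in SR protein subfamilies, 17 had a log2 fold change above 0, against 8808 of 19121 genes tested, with a median of 0.27. Of the 18, 3 had an unadjusted p under 0.05, all higher in *brr2a*-2, against 6.93% of all genes tested. The SR subfamily proper holds the relatives of the human splicing factor SRSF1. *SR30* (AT1G09140, chr1:2942538-2945976, minus strand) stood at 32.0, 22.2 and 30.2 CPM in replicates 1 to 3 of Col and at 49.1, 51.0 and 34.1 CPM in those of *brr2a*-2. The genotypes did not overlap, although *brr2a*-2 replicate 3 was close to the highest Col library. This gave a log2 fold change of 0.67 (SE 0.22, adjusted p = 0.273, edgeR), which lay between 0.53 and 0.83 when single libraries were left out. The SR30 protein is known to change the splicing of its own transcript.

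*SR34*, the closest relative of SRSF1, stood at 42.0, 48.0 and 54.5 CPM in Col and at 61.2, 63.9 and 56.8 CPM in *brr2a*-2. These libraries did not overlap either, with a log2 fold change of 0.33 (SE 0.16, adjusted p = 0.396, edgeR). *SR34b* was at 9.11 ± 2.25 CPM in Col and 12.7 ± 1.53 CPM in *brr2a*-2, and *SR34a* was at 23.6 ± 2.76 and 24.3 ± 1.23 CPM (SD, n = 3 each). The fold changes of the subfamily thus ran from 0.04 in *SR34a* to 0.67 in *SR30* on the log2 scale.

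The RS and RS2Z subfamilies are specific to plants, and RS2Z proteins carry a pair of zinc knuckles next to the RNA recognition motif. *RS2Z32* (AT3G53500, chr3:19834240-19837088, minus strand) had the smallest p of the 33 genes. Its level was 41.2, 38.3 and 44.8 CPM in Col and 63.3, 65.3 and 62.4 CPM in *brr2a*-2. The lowest *brr2a*-2 library was therefore well above the highest Col library. With a log2 fold change of 0.62 (SE 0.14), the adjusted p was 0.195 in edgeR and 0.00543 in DESeq2. The fold change lay between 0.57 and 0.69 when single libraries were left out. *RS2Z32* overlaps another locus on the opposite strand, *AT3G53490*, and no strand setting is given for the counts, so reads of both cannot be told apart. The annotation also places loci on the opposite strand over *RS40*, *RS41*, *RS31a*, *RS2Z33*, *SC35*, *PTB1*, *UBP1B* and *UBP1C*, and the same limit holds for their values. Its paralog *RS2Z33*, whose coding sequence was 62.9% identical, was at 38.0, 31.3 and 53.5 CPM in Col and at 38.3, 40.8 and 59.7 CPM in *brr2a*-2. Replicate 3 was the highest library of *RS2Z33* in both genotypes, and the genotypes overlapped (log2 fold change 0.18, SE 0.26, adjusted p = 0.787, edgeR).

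All 4 RS genes had a log2 fold change above 0, between 0.10 in *RS31a* and 0.38 in *RS41*, and none had an unadjusted p under 0.05. *RS31* was at 21.0 ± 2.39 CPM in Col and 26.0 ± 1.34 CPM in *brr2a*-2 (SD, n = 3 each), without overlap between libraries. *RS41* was at 69.9 ± 6.15 and 91.0 ± 14.9 CPM, and *RS40* at 80.9 ± 8.93 and 88.3 ± 10.1 CPM (SD, n = 3 each), both with overlap. *RS31a* was low, and its Col level of 8.28 CPM in replicate 1 was above all other libraries, which lay between 3.32 and 6.28 CPM. The RSZ proteins, relatives of the human factor SRSF7 with a single zinc knuckle, had log2 fold changes of 0.30 for *RSZ21*, 0.14 for *RSZ22* and 0.25 for *RSZ22a*, all with overlapping libraries.

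The SCL subfamily, plant-specific relatives of SC35, held the third SR gene with an unadjusted p under 0.05. *SCL33* (AT1G55310, chr1:20629698-20633007, plus strand) stood at 25.4, 18.8 and 19.4 CPM in Col and at 31.8, 38.3 and 26.8 CPM in *brr2a*-2. The genotypes did not overlap, but the highest Col library and the lowest *brr2a*-2 library were close. *SCL33* thus had a log2 fold change of 0.61 (SE 0.20, adjusted p = 0.274, edgeR). Its paralog *SCL30a*, with 73.4% identity in the coding sequence, was at 28.4 ± 3.56 and 30.9 ± 2.78 CPM, and *SCL30* was at 40.2 ± 5.27 and 41.7 ± 1.53 CPM (SD, n = 3 each). *SCL28*, at 0.996 ± 0.112 CPM in Col and 0.961 ± 0.265 CPM in *brr2a*-2 (SD, n = 3 each), was the 1 gene of the 18 with a log2 fold change below 0, and this sign was lost without *brr2a*-2 replicate 1 (0.11), *brr2a*-2 replicate 3 (0.00) or Col replicate 3 (0.04). *SC35*, the relative of human SRSF2, was at 19.1, 20.9 and 22.0 CPM in Col and at 24.6, 28.7 and 24.0 CPM in *brr2a*-2, with no overlap and a log2 fold change of 0.32 (SE 0.16, adjusted p = 0.399, edgeR).

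SR45 and SR45a carry arginine/serine-rich stretches on both sides of the RNA recognition motif. *SR45* (AT1G16610, chr1:5675495-5678873, minus strand) stood at 23.2, 25.3 and 20.8 CPM in Col and at 21.1, 25.1 and 20.9 CPM in *brr2a*-2, so the genotypes overlapped almost fully. The difference of *SR45* was -0.05 on the log2 scale (SE 0.16, adjusted p = 0.922, edgeR). *SR45a*, which is known for its induction by high light and heat, ran from 15.0 to 22.4 CPM in Col, with a mean of 18.4 ± 3.75, and up to 23.9 CPM in *brr2a*-2, with a mean of 20.7 ± 3.46 (SD, n = 3 each). The libraries overlapped (log2 fold change 0.18, SE 0.21, adjusted p = 0.736, edgeR). Of 7 heat and high light genes listed beside it, 5 were tested and 0 had an unadjusted p under 0.05. Their log2 fold changes ran from -0.89 in *HSFA2* to 1.18 in *ELIP2*, with 2 above 0 and 3 below. *HSFA2*, a heat shock factor, was at 1.48 ± 0.088 CPM in Col and 0.793 ± 0.386 CPM in *brr2a*-2 (SD, n = 3 each), without overlap. *HSP70-4* was at 71.9 ± 17.8 CPM in Col and 98.6 ± 31.5 CPM in *brr2a*-2 (SD, n = 3 each), with overlap.

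**Figure D2:**
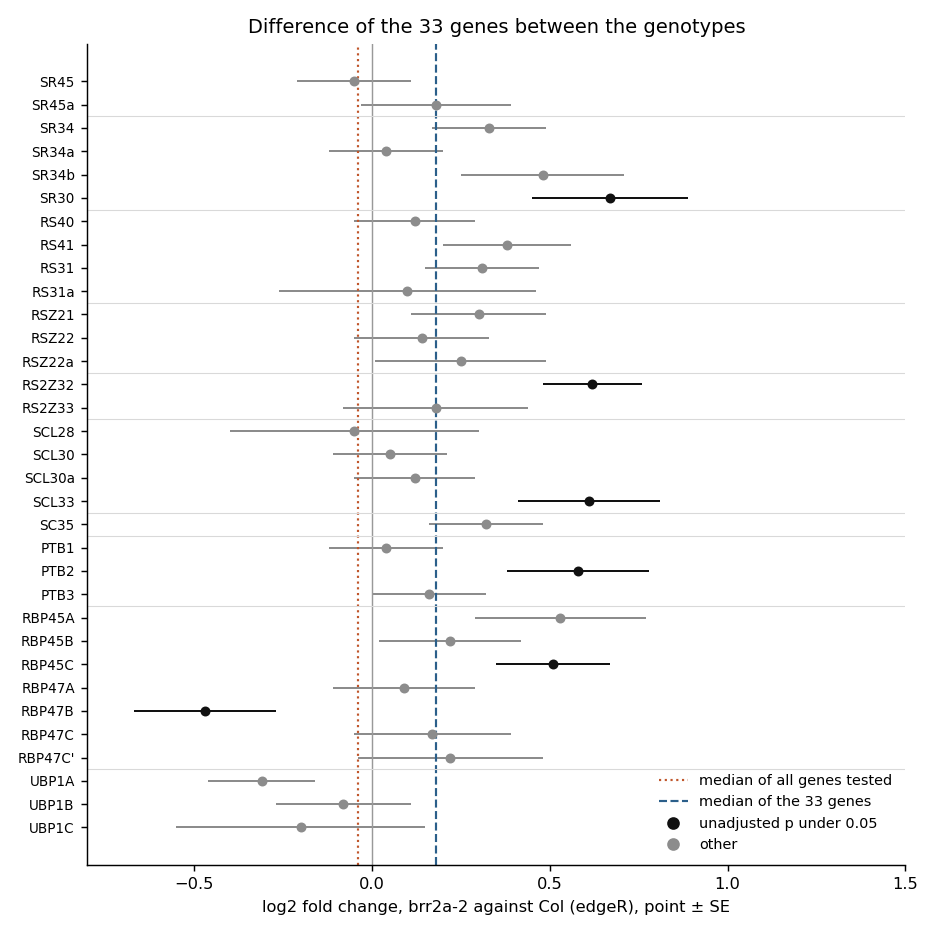
Log2 fold change of each gene, *brr2a*-2 against Col, from edgeR with its standard error as the bar. Black marks the 6 genes with an unadjusted p under 0.05, the dashed line is the median of the 33 genes at 0.18 and the dotted line the median of all 19121 genes tested at -0.04. All genes of the SR, RS, RSZ and RS2Z subfamilies lie to the right of 0, and the 3 *UBP1* genes lie to the left.

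The 13 hnRNP-like genes had 9 log2 fold changes above 0 and 4 below, with a median of 0.16, where 8808 of 19121 genes tested were above 0. PTB proteins bind pyrimidine tracts, and PTB1 and PTB2 are known to regulate the splicing of their own and of each other's transcripts. *PTB2* (AT5G53180, chr5:21568131-21571904, minus strand) stood at 23.7, 20.0 and 19.9 CPM in Col and at 34.7, 36.0 and 24.4 CPM in *brr2a*-2. The genotypes did not overlap, although *brr2a*-2 replicate 3 lay close to Col replicate 1. For *PTB2* the log2 fold change was 0.58 (SE 0.20, adjusted p = 0.275, edgeR). *PTB1* was at 14.2 ± 1.45 and 14.6 ± 1.26 CPM and *PTB3* at 28.1 ± 3.27 and 31.3 ± 2.52 CPM (SD, n = 3 each), both with overlap.

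RBP45 and RBP47 proteins carry several RNA recognition motifs and bind uridine-rich and poly(A) RNA. The 3 *RBP45* genes had log2 fold changes of 0.53 for *RBP45A*, 0.22 for *RBP45B* and 0.51 for *RBP45C*. *RBP45C* (AT4G27000, chr4:13554604-13557915, minus strand) stood at 48.0, 57.7 and 56.4 CPM in Col and at 70.6, 74.8 and 84.8 CPM in *brr2a*-2. The genotypes were separated by a wide gap (SE 0.16, adjusted p = 0.258, edgeR). *RBP45A* ran from 10.3 to 17.9 CPM in Col and from 18.5 to 25.2 CPM in *brr2a*-2, without overlap (SE 0.24, adjusted p = 0.375, edgeR). *RBP45B* was at 140, 157 and 132 CPM in Col and at 183, 184 and 131 CPM in *brr2a*-2. Its mean in Col was the highest of the set, but not beyond the spread of *UBP1C*. Replicate 3 of *brr2a*-2 lay below all Col libraries for *RBP45B*, whereas replicates 1 and 2 lay above them.

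Within the *RBP47* branch, *RBP47B* (AT3G19130, chr3:6611182-6614107, minus strand) had the lowest log2 fold change of the set. RBP47B is known as a protein of plant stress granules. It stood at 40.3, 30.5 and 45.2 CPM in Col and at 24.5, 28.0 and 30.9 CPM in *brr2a*-2, so that *brr2a*-2 replicate 3 was just above Col replicate 2. This corresponds to a log2 fold change of -0.47 (SE 0.20, adjusted p = 0.334, edgeR). *RBP47A*, *RBP47C* and *RBP47C'* had log2 fold changes of 0.09, 0.17 and 0.22 with overlapping libraries. The coding sequences of *RBP47C* and *RBP47C'* were 93.4% identical, with an identical stretch of 116 bases, so reads of these genes, which lie close together on chromosome 1, may be shared and their separate values are uncertain. All 3 *UBP1* genes, whose proteins are related to the animal factor TIA-1, had log2 fold changes below 0. *UBP1A* stood at 83.9, 74.8 and 89.3 CPM in Col and at 64.2, 68.5 and 67.4 CPM in *brr2a*-2, with no overlap (log2 fold change -0.31, SE 0.15, adjusted p = 0.398, edgeR). *UBP1B* (-0.08, SE 0.19) and *UBP1C* (-0.20, SE 0.35) overlapped, and their signs turned without Col replicate 2 (0.08 for *UBP1B*) and without Col replicate 3 (0.19 for *UBP1C*). *UBP1C* was at 118, 85.8 and 193 CPM in Col, the widest spread of the family.

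The enzymes and partners of SR proteins were examined as further lists. Of 9 genes for SR protein kinases and their nuclear importer, 7 had log2 fold changes above 0 and 2 had an unadjusted p under 0.05, both higher in *brr2a*-2, against 8808 of 19121 and 6.93% over all genes tested. *AFC2* (AT4G24740), a kinase of the LAMMER type that phosphorylates SR proteins, was at 42.3 ± 3.19 CPM in Col and 58.3 ± 3.75 CPM in *brr2a*-2 (SD, n = 3 each). Its log2 fold change was 0.46 (SE 0.15, adjusted p = 0.261, edgeR). *MOS14* (AT5G62600), which encodes the transportin that imports SR proteins into the nucleus, was at 28.2 ± 1.68 and 37.6 ± 3.39 CPM (SD, n = 3 each). Its log2 fold change was 0.42 (SE 0.15, adjusted p = 0.291, edgeR). The 5 SRPK kinases had log2 fold changes between -0.15 for *SRPK2* and 0.37 for *SRPK5*.

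Of 5 genes for the splice site recognition factors with which SR proteins interact, all had log2 fold changes above 0, and 1 was higher at an unadjusted p under 0.05, against 8808 of 19121 and 6.93% over all genes tested. The libraries of 3 of the 5 did not overlap, against 10.8%. *U2AF65B* (AT1G60900), a large subunit of the factor that binds the pyrimidine tract, was at 46.8, 37.8 and 47.7 CPM in Col and at 71.9, 70.6 and 63.2 CPM in *brr2a*-2. The genotypes were far apart, with a log2 fold change of 0.64 (SE 0.16). For *U2AF65B* the adjusted p was 0.21 in edgeR and 0.0203 in DESeq2. *U2AF65A* was at 81.2 ± 10.3 and 107 ± 11.7 CPM and *U1-70K* at 54.2 ± 7.36 and 65.7 ± 1.89 CPM (SD, n = 3 each), both without overlap, while *U2AF35A* and *U2AF35B* each had a log2 fold change of 0.01. Of 8 other hnRNP-like genes 0 had an unadjusted p under 0.05, and their log2 fold changes ran from -0.20 in *UBA1C* to 0.36 in *RBP45D*.

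Introns of 25 of the 33 genes could be used. The other 8 genes lie on chromosome 3, where the intron names of the table did not follow their genes. Across genes, the rank correlation between summed intron counts and gene counts was 0.32 for chromosome 3 and between 0.86 and 0.88 for the other chromosomes, which is a description across genes and not across replicates. The 25 genes had 184 listed introns. Of these, 20 introns in 16 genes were longer than 400 bp, or 10.9%, against 6.81% of all introns placed on the annotation. For 8 genes the longest intron was wholly exonic in another annotated isoform. These were *SR30*, *SR45*, *SCL33*, *RS31a*, *SR34b*, *RS40*, *RS41* and *SC35*. In Col the longest introns of these 8 genes had between 2.61 and 30.7 reads per 100 gene counts, with a median of 12.0. In 11 genes whose longest intron was exonic in no other isoform, the median was 3.38.

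The intron comparison asked whether intron reads differed between the genotypes beyond the difference of the gene, and it was made on 51 introns of the 25 genes that passed the filter on low counts, among 17214 introns in all. The main scaling sets the trimmed mean of intron differences to 0 before the difference of the gene is taken out. It gave a median log2 fold change beyond the gene of -0.30 for the 51 introns and -0.09 for all introns. Scaled by the gene table instead, the medians were 0.31 and 0.52, a shift of 0.61 for all introns that turned the sign of many of them, so changes are read here relative to all introns. In both scalings the median of the 51 introns lay below that of all introns, by the values given. Under the main scaling, 0 of the 51 introns were called, where 0.25% of all introns were (edgeR's quasi-likelihood test). All introns include those named for chromosome 3, which the 51 do not. Of the 13811 tested introns outside chromosome 3, 5 were called higher and 0 lower. At an unadjusted p under 0.05, 1 intron was higher (5.61% of all introns, 567 of the 13811) and 7 were lower (6.70%, 797 of the 13811). With the scaling of the gene table, 1 of the 51 introns was called higher, where 3.93% of all introns and 392 of the 13811 were. At an unadjusted p under 0.05 with this scaling, 7 of the 51 introns were higher and 0 lower. Of all introns 23.3% were higher in this way, and 2938 of the 13811.

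These counts moved with single libraries. The count of 7 lower introns under the main scaling was 3 without *brr2a*-2 replicate 1, 4 without replicate 2 and 4 without replicate 3. The count of 1 higher intron was 0 without *brr2a*-2 replicate 2 and 2 without Col replicate 1 or 3. The longest introns of the genes, 19 of which were tested, had a median of -0.54 under the main scaling and 0.06 under that of the gene table. The 32 other introns had medians of -0.15 and 0.46. Not all of the 19 were over 400 bp. The 17 tested introns of the genes over 400 bp had medians of -0.56 and 0.06. All tested introns over 400 bp outside chromosome 3 had medians of -0.27 and 0.34. Of the 19 longest introns, 16 lay below 0 under the main scaling, and 8 of them did under the other. Of all 17214 introns tested, 9576 and 3121 lay below 0 under these scalings. Of the 2938 introns over 400 bp outside chromosome 3, 2118 and 645 did.

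**Figure D3:**
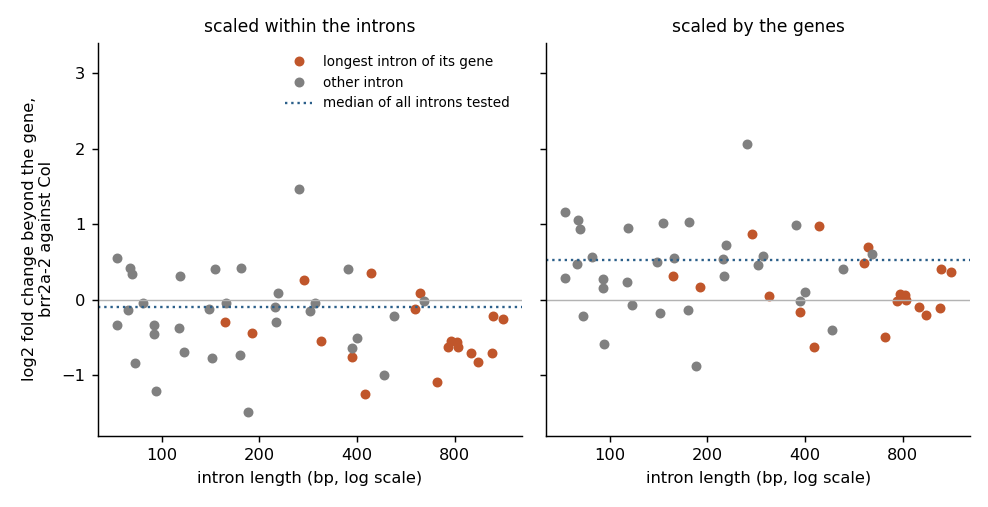
Log2 fold change beyond the gene of the 51 tested introns against intron length in bp on a log scale, with the main scaling on the left and the scaling of the gene table on the right. Orange points are the longest introns of their genes, grey points the other introns, and the dotted line is the median of all introns tested, at -0.09 and 0.52. The point of *SR45* intron 9, at 1.46 and 2.06, stands above all others in both panels.

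The intron with the highest log2 fold change was intron 9 of *SR45*, 265 bp at chr1:5676496-5676760. Its ends are shown with the first and last bases of the intron in capitals, since this is the intron of the set that was called under the scaling of the gene table.
*SR45* intron 9, 5′ splice site: caaGTatgttgg
*SR45* intron 9, 3′ splice site: gtctttaactgtaagcAGggg
It had 11, 3 and 2 reads in Col replicates 1 to 3 and 15, 24 and 13 reads in those of *brr2a*-2. Per 100 counts of *SR45* these were 1.43, 0.552 and 0.508 in Col and 3.28, 4.62 and 3.46 in *brr2a*-2, so the genotypes were well separated, on few reads. Beyond the gene, the log2 fold change was 1.46 (SE 0.52, adjusted p = 0.278, edgeR), and 2.06 with an adjusted p of 0.0405 under the scaling of the gene table. DESeq2 gave no adjusted p for this intron, and 12.5% of its length is exonic in another annotated isoform. Intron 11 of *SR45*, its longest, was at 2.08, 2.95 and 2.79 reads per 100 gene counts in Col and at 4.80, 4.05 and 5.59 in *brr2a*-2, again without overlap (log2 fold change 0.26, adjusted p = 0.83, and 0.87 under the other scaling, adjusted p = 0.188, edgeR). *SR45* thus combined a gene log2 fold change of -0.05 with a share over all its introns of 7.55 ± 0.979 per 100 gene counts in Col and 14.7 ± 1.16 in *brr2a*-2 (SD, n = 3 each). *UBP1B* had shares over all introns of 9.94 in Col and 18.9 in *brr2a*-2, and its longest intron was at 5.64, 4.08 and 4.05 in Col and at 8.52, 11.9 and 5.97 in *brr2a*-2.

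Intron 10 of *SR30*, 942 bp at chr1:2943227-2944168, carries an alternative 3′ splice site in an annotated isoform and is retained in another. Its ends are shown since it was the 1 longest intron whose share was lower in *brr2a*-2 without overlap.
*SR30* intron 10, 5′ splice site: aagGTatgagtg
*SR30* intron 10, 3′ splice site: tttttggtcttgctgcAGgtc
It had 17.1, 18.4 and 16.8 reads per 100 gene counts in Col and 14.4, 14.6 and 16.6 in *brr2a*-2, where replicate 3 was close to Col. Beyond the gene, the log2 fold change was -0.82 (SE 0.34, adjusted p = 0.358, edgeR) and -0.20 under the scaling of the gene table. The other introns of *SR30* together were at 8.52 reads per 100 gene counts in Col and 11.2 in *brr2a*-2, without overlap in the opposite direction.

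Intron 3 of *SCL33*, 765 bp, had 27.6, 24.3 and 23.1 reads per 100 gene counts in Col and 27.2, 23.6 and 24.1 in *brr2a*-2. The ranges of the genotypes overlapped, in a gene whose own level was higher in each *brr2a*-2 library than in any Col library. In Col the reads per base of this intron were 49.3% to 58.9% of the gene counts per base of exon of the first isoform. These gene counts were not limited to reads in those exons. Intron 2 of *RS31a*, 705 bp, had the highest mean share of the longest introns in Col but not in *brr2a*-2, at 38.7, 26.4 and 27.0 in Col and 21.3, 28.4 and 21.3 in *brr2a*-2, on 17 to 106 reads per library. Its log2 fold change was -1.09 (SE 0.48, adjusted p = 0.377, edgeR) and -0.49 under the other scaling. *RS31a* overlaps 2 loci on the opposite strand, so the reads cannot be assigned by strand here.

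The mean shares of the longest introns of *RS40*, *RS41*, *SR34* and *PTB2* were close between the genotypes. Intron 2 of *RS40* was at 10.1, 9.21 and 9.35 reads per 100 gene counts in Col and at 10.7, 8.21 and 11.7 in *brr2a*-2. Intron 2 of its paralog *RS41* was at 8.83, 5.95 and 5.47 in Col and at 6.44, 5.72 and 6.75 in *brr2a*-2. In *RS40* the *brr2a*-2 values all lay outside the range of the Col values, on both sides of it. The means of *RS40* were 9.57 ± 0.506 in Col and 10.2 ± 1.81 in *brr2a*-2 (SD, n = 3 each). In *RS41* the *brr2a*-2 values lay within the range of the Col values. Intron 10 of *SR34* was at 16.5, 11.0 and 13.2 in Col and at 15.2, 12.5 and 12.3 in *brr2a*-2. Intron 3 of *PTB2* was at 10.9, 15.6 and 15.6 in Col and at 14.8, 15.2 and 12.8 in *brr2a*-2. None of these 4 introns had an unadjusted p under 0.05, and their log2 fold changes were -0.54, -0.71, -0.62 and -0.56 under the main scaling and 0.08, -0.10, -0.01 and 0.06 under that of the gene table. Intron reads here cannot tell inclusion of the alternative exon from retention of the whole intron.

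Of the other longest introns, intron 2 of *RS2Z33*, 624 bp and partly exonic in other isoforms, was at 8.10 ± 2.53 reads per 100 gene counts in Col and at 13.3 ± 4.36 in *brr2a*-2 (SD, n = 3 each). Replicates 1 and 2 of *brr2a*-2 were above all Col libraries and replicate 3 was within their range (log2 fold change 0.09, SE 0.35, adjusted p = 0.935, and 0.70 under the scaling of the gene table, adjusted p = 0.253, edgeR). The mean share of the longest intron was 14.4 in Col and 13.4 in *brr2a*-2 for *SR34b*, and 4.97 and 5.70 for *SC35*, whose intron 8 is its longest. In the *RBP45* genes it is intron 2, of 1042 to 1127 bp, and the mean shares were 8.71 and 8.27 for *RBP45A*, 3.71 and 4.75 for *RBP45B* and 2.00 and 2.63 for *RBP45C*. They were 3.01 and 2.95 for *PTB3*, 3.38 and 3.77 for *RSZ22a* and 1.17 and 1.64 for *RBP47A*. The libraries of all these genes overlapped. The longest introns of *RSZ21*, *RSZ22*, *RBP47C*, *RBP47C'*, *UBP1A* and *SCL28* did not pass the filter. Their mean shares were 2.35 and 1.37, 0.870 and 0.980, 0.792 and 0.927, 0.858 and 0.970, and 0.482 and 0.438 in the order given, with overlap, and 16.3 and 29.0 for *SCL28*, without overlap and on few reads.

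**Figure D4:**
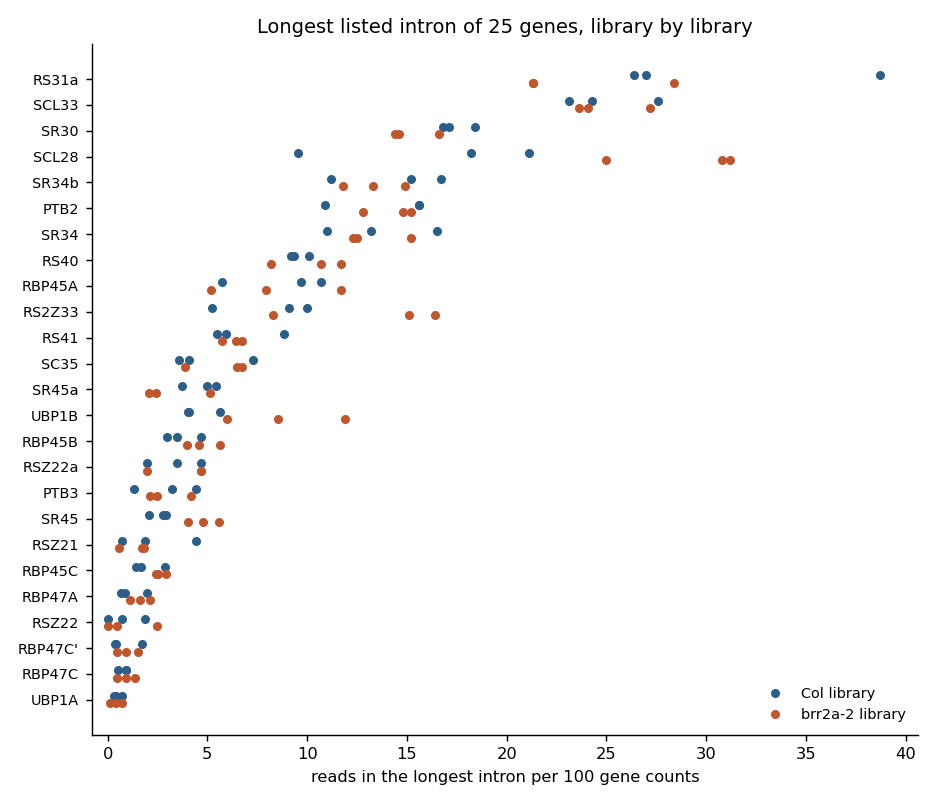
Reads in the longest listed intron per 100 gene counts for 25 genes, with 1 point per library, blue for Col and orange for *brr2a*-2. The genes with the highest shares in Col, *RS31a* and *SCL33*, overlap between genotypes, and *SR45* and *UBP1B* are higher in all *brr2a*-2 libraries, as is *SCL28*, which rests on 2 to 8 intron reads per library.

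The remaining introns with an unadjusted p under 0.05 were lower beyond the gene under the main scaling. Intron 1 of *SR45a*, its longest at 425 bp, was at 4.97, 3.72 and 5.41 reads per 100 gene counts in Col and at 5.15, 2.42 and 2.09 in *brr2a*-2, with overlap at replicate 1. Intron 5 of *RS41*, at 1.59, 1.82 and 1.39 in Col and 1.16, 0.915 and 1.17 in *brr2a*-2, did not overlap. Intron 6 of *UBP1A* was between 0.996 and 1.40 in Col and at 0.647, 1.06 and 0.330 in *brr2a*-2, with the lowest log2 fold change of the set, -1.48 (SE 0.46, adjusted p = 0.219, edgeR). Intron 1 of *RS40* and intron 3 of *RBP47C'* had log2 fold changes of -1.0 and -0.84. Under the scaling of the gene table the values of these 5 introns were -0.63, -0.58, -0.88, -0.40 and -0.22 in the same order, so the sign was kept, and 0 of them had an unadjusted p under 0.05.

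Shares of intron reads were then summed, per 100 gene counts, over the 23 genes with at least 100 gene counts in every library, which leaves out *RS31a* and *SCL28*. Over all their introns the share was 13.2, 10.6 and 10.8 in Col and 15.3, 13.7 and 13.8 in *brr2a*-2. The genotypes did not overlap, and the mean was 1.24 times higher in *brr2a*-2 (11.6 ± 1.46 against 14.3 ± 0.911, SD, exact two-sided permutation test, p = 0.1, which is the smallest possible with 3 libraries a genotype). Over 7027 genes outside chromosome 3 the same share was 6.07 ± 0.837 in Col and 8.78 ± 0.568 in *brr2a*-2 (SD, n = 3 each), which is 1.45 times higher. The share of intron reads was thus higher for these regulators than for all genes in both genotypes, by the values given, and its ratio between the genotypes was 1.24 against 1.45. That difference in ratio was not tested.

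Split by intron, the longest introns of the 23 genes had 6.84, 4.97 and 5.50 reads per 100 gene counts in Col and 7.51, 6.45 and 6.59 in *brr2a*-2. The genotypes overlapped, with a ratio of 1.19 (exact two-sided permutation test, p = 0.3). The other introns of the 23 genes had 6.40, 5.61 and 5.35 in Col and 7.84, 7.28 and 7.22 in *brr2a*-2, without overlap and with a ratio of 1.29 (exact two-sided permutation test, p = 0.1). For the 7027 genes the ratio was 1.32 for the longest introns, also with overlap (exact two-sided permutation test, p = 0.2). For their other introns it was 1.51, also without overlap (exact two-sided permutation test, p = 0.1).

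**Figure D5:**
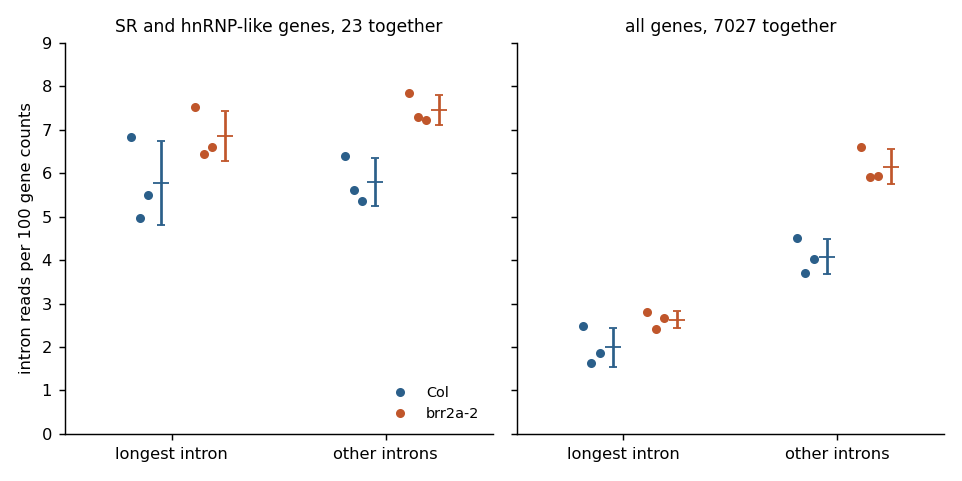
Intron reads per 100 gene counts in every library, summed over the 23 SR and hnRNP-like genes on the left and over 7027 genes outside chromosome 3 on the right, for the longest intron of each gene and for all others. Points are libraries, and the bars to their right give the mean ± SD of 3 libraries. On the left the longest introns overlap between the genotypes at 4.97 to 6.84 and 6.45 to 7.51, and the other introns do not. On the right the longest introns overlap too, at 1.63 to 2.48 and 2.42 to 2.81, and the other introns do not.

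By gene, the share over all introns was higher in *brr2a*-2 without overlap in 5 of the 23 genes, against 46.7% of 8187 genes outside chromosome 3. These genes were *SR45*, *SC35*, *RBP47A*, *RBP47C* and *UBP1B*, with ratios between 1.22 for *SC35* and 1.94 for *SR45*. The count was 13 without Col replicate 1, which had the highest intron share of the Col libraries, and 8 without *brr2a*-2 replicate 2. Leaving out a library can only keep or raise such a count. The 46.7% holds for all 6 libraries, and no share over all genes is given for fewer, so these counts cannot be set against it. The share over all introns was lower without overlap in 0 of the 23 genes, against 0.305%. For the longest intron alone, 2 of the 23 genes were higher, against 21.4% of 7027 genes outside chromosome 3, and 1 was lower, against 1.31%. For the other introns 10 of the 23 genes were higher, against 45.8% of the same 7027 genes. The 10 genes were *SR45*, *SR45a*, *SR34b*, *SR30*, *RS41*, *RSZ21*, *RBP47A*, *RBP47C*, *UBP1A* and *UBP1B*. The ratio of the means was highest in *SR45*, at 1.99, and *UBP1B*, at 1.89, and lowest among the 10 in *SR30* and *RS41*, at 1.32 each.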

How the data were processed

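Transcripts were counted in 3 wild type and 3 *cao* mutant libraries, grouped by the genotype label. RNA was depleted of ribosomal RNA, and reads were trimmed with Trimmomatic 0.32, aligned to TAIR10 with TopHat2 and counted with HTSeq per the submitters' processing notes and the study's methods. Whether reads were counted by strand is not given in the sources used here. The authors deposited whole-number counts per gene and per intron of the first isoform, without normalization. The correction of the study with RUVseq is not part of these counts. Columns of no sample numbered 0.

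Counts were tested in R 4.3.3 with edgeR 4.0.16 (filterByExpr at a minimum count of 10, TMM, quasi-likelihood test, Benjamini-Hochberg adjustment over all features tested). Intron fits carried the difference of the gene between the genotypes, shrunken with 2 prior counts, as an offset of the mutant libraries. Calls combined an adjusted p below 0.05 with a 2-fold difference in either direction. Standard errors were taken from the log2 fold change and its F statistic. Intron shares are summed intron counts per 100 gene counts. Introns, which the table numbers along the chromosome, were placed on TAIR10.1 from RefSeq where the annotation gives a gene as many introns as the table (94.3% of introns), and sequences were read with biopython 1.88. Percent identity is that of a global alignment. Replicates were compared by a chi-square per gene, which lay between 26.1 and 105, so none was within sampling noise of another. Intron counts limit the precision, and reads without molecular identifiers are not independent molecules.

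Alternatives were DESeq2 1.42.0, other scalings and filters, a RUVg factor from 5000 genes, other gene corrections, the replicate number as a block, and each library left out. The scripts were tested on simulated counts. The 33 genes, the further lists and the tests were chosen with earlier results of these data known. All 33 genes are named, and introns are named if they are the longest of their gene or have an unadjusted p under 0.05. Introns of genes on chromosome 3 stayed in the fit and are not printed.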

Additional observations from a re-analysis of the deposited data

How the results depend on the processing

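None of the 33 genes was called under the 14 alternatives for genes. Over all genes the 0 calls became 243 higher and 176 lower with DESeq2, 369 and 234 with DESeq2 and a RUVg factor, 6 and 4 with that factor in edgeR, 2 and 1 without a filter, and between 0 and 1 in each direction with single libraries left out. Of the 33 genes, those higher at an unadjusted p under 0.05 numbered 3 without TMM and between 2 and 8 with libraries left out, against 5. The 1 lower gene became 0 with DESeq2 and a RUVg factor, and between 0 and 1 with libraries left out. Signs turned without TMM for *SR34a* (-0.04), *RS31a* (-0.01), *SCL30* (-0.01) and *PTB1* (-0.03). With single libraries left out, the log2 fold change lay between -0.13 and 0.02 for *SR45*, -0.03 and 0.14 for *SR34a*, -0.12 and 0.60 for *RS31a*, -0.02 and 0.24 for *RSZ22*, -0.05 and 0.43 for *RS2Z33*, -0.29 and 0.11 for *SCL28*, -0.03 and 0.18 for *SCL30*, -0.04 and 0.11 for *PTB1*, -0.04 and 0.19 for *RBP47A*, -0.22 and 0.08 for *UBP1B* and -0.47 and 0.19 for *UBP1C*. The cause of these turns was not tested.

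Over all introns the 33 higher and 10 lower calls became 78 and 48 with DESeq2, 117 and 87 with the smaller default prior count of edgeR for the gene, 80 and 19 without gene correction, 676 higher with the scaling of the gene table and 18 lower at a minimum count of 5. They lay between 0 and 37 higher and between 0 and 44 lower with libraries left out. Introns of the 33 genes at an unadjusted p under 0.05 numbered 2 higher at a minimum count of 5, 2 higher and 3 lower without gene correction and 7 higher and 0 lower with the scaling of the gene table, which called 1 of them. With libraries left out they were between 0 and 2 higher and between 3 and 8 lower. The scaling of the gene table turned the longest introns of *RBP45B* (0.37), *PTB3* (0.05), *RBP47A* (0.49), *RSZ22a* (0.32), *RS40* (0.08), *RBP45C* (0.40), *PTB2* (0.06) and *SC35* (0.17), which its construction adds to every intron alike. Leaving out the gene correction turned *RBP45C* (0.30) and *PTB2* (0.02). With libraries left out, these values lay between -0.40 and 0.34 for *RBP47A*, -0.27 and 0.40 for *RS2Z33* and -0.44 and 0.08 for *RBP45C*. Genes with a higher intron share without overlap numbered 10 with the longest intron left out, and between 6 and 13 with libraries left out. Leaving out a library can only keep or raise this count. The difference of the summed share lay between 2.22 and 3.58 with libraries left out, against 2.74.

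Whether the replicate numbers pair the libraries was not tested. Deviations of same-numbered libraries correlated at 0.042, 0.188 and 0.418. Col replicates 2 and 3 each correlated best with the *brr2a*-2 library of the same number. Col replicate 1 correlated best with *brr2a*-2 replicate 2 (0.246). With the replicate number as a block, 0 of the 33 genes were called and 7 were higher at an unadjusted p under 0.05, and over all introns 48 were called higher and 16 lower. Low intron counts limit the values of single introns most, since 133 of 184 could not be tested.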
